A study of Mus musculus with 20 samples.

Results

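The tumours of the LAKT organoid line MTO207 were compared with those of the parental LAKTP lines MTO68 and MTO93. All 4 tumours of MTO207, all 4 of MTO68 and all 4 of MTO93 were used, chosen by organoid number and genotype label, which makes 12 of the 20 tumours in the series. Every tumour grew on the caecum of a C57BL/6J mouse and gave 1 array of RNA from whole tumour fragments. In each line 2 mice were controls and 2 received galunisertib, which blocks the kinase of the type I TGF-beta receptor, at 10 mg by gavage 2 times per day from day 11 until sacrifice in week 5. The 3 lines were first grown under the skin of mice, and pieces of 1 mm3 of those tumours were then placed on the caecum. The other 8 tumours, from the LAKTP line MTO140 of type LiM and the LAKP line MTO54, appear only where their levels are named.

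The labels do not spell out the genotype letters. In the published mouse tumour organoids they include the Lgr5 driver and altered Apc, Tgfbr2 and p53 alleles, so that LAKT lacks the p53 alteration and shares the other alterations with LAKTP. Host stroma, vessels and leukocytes in these tumours carry intact genes. LAKT was 1 line, and the arrays of each line shared a strip of their own, so genotype, line and strip cannot be told apart in any difference below. Trp53 was not analysed here.

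p53 is a transcription factor that is stabilised by DNA damage and oncogene activity and then switches on genes for cell cycle arrest, DNA repair and cell death. Mdm2 and Mdm4 hold it back, and the ARF protein made from the Cdkn2a locus restrains Mdm2. Colorectal tumours often lose p53 function late in their growth, after changes in Wnt signalling.

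Epithelial markers were high in all 12 tumours. Epcam, the epithelial adhesion molecule, ranged from 9.65 to 11.1 on the log2 scale of the deposited values, the keratin gene Krt8 from 10.7 to 11.5 and the gut cadherin gene Cdh17 from 7.41 to 9.26. The pancreas marker Prss2 (3.86 to 4.68) and the fat marker Adipoq (3.93 to 4.70) lay close to 4.16, the 25th percentile of all values. The other pancreas marker, Cela1, lay above it, at 6.40 to 7.76 in MTO68 and 4.71 to 5.76 in LAKT and MTO93. The squamous keratin Krt5 was measured well above that level, from 5.77 to 9.35, and the mesothelial gene Upk3b from 6.17 to 7.53. The values of an array had an SD of 1.46 to 1.57 in MTO207, 1.52 to 1.60 in MTO93 and 1.76 to 1.82 in 3 MTO68 tumours, while MTO68 control replicate 2 stood apart from its line at 1.47. Bright genes moved with this spread. Over 4036 genes with a mean above 7, the median LAKT difference was -0.47 against MTO68 and -0.11 against MTO93, beside -0.01 and 0.01 over all 15556 genes tested, and the part of the spread in single results was not tested beyond the values given.

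The first comparison asked which genes set LAKT tumours apart from both LAKTP lines. Neto2 encodes an auxiliary subunit of kainate receptors. It was the 1 gene called higher in LAKT (limma adjusted p of 0.05) against the mean and against each LAKTP line. The arm condition asked only for the same sign of the mean differences, and no gene was called within control tumours alone. The log2 values of Neto2 were 6.85 and 7.12 in the LAKT control tumours and 6.89 and 7.15 in the LAKT galunisertib tumours. In MTO68 they were 5.15, 5.67, 5.40 and 4.95, and in MTO93 5.60, 5.97, 5.36 and 5.79, in the same order of arms. Every LAKT tumour thus lay above every LAKTP tumour. Both Neto2 probe sets showed groups that do not overlap.

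The log2 difference for Neto2 was 1.52 (SE 0.15; limma adjusted p = 0.00396), or 2.86-fold, against the mean of the LAKTP lines. It was 1.71 (adjusted p = 0.00037) against MTO68 and 1.32 (adjusted p = 0.0362) against MTO93. Tumours of MTO140, at 5.41 to 6.15, and of MTO54, at 5.47 to 6.43, also lay below all 4 LAKT tumours. When each of the 12 arrays was left out in turn, Neto2 met all conditions in 2 fits and missed at least 1 in the other 10. Over 29 settings, the leave-outs included, it held in 15.

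**Figure D1:**
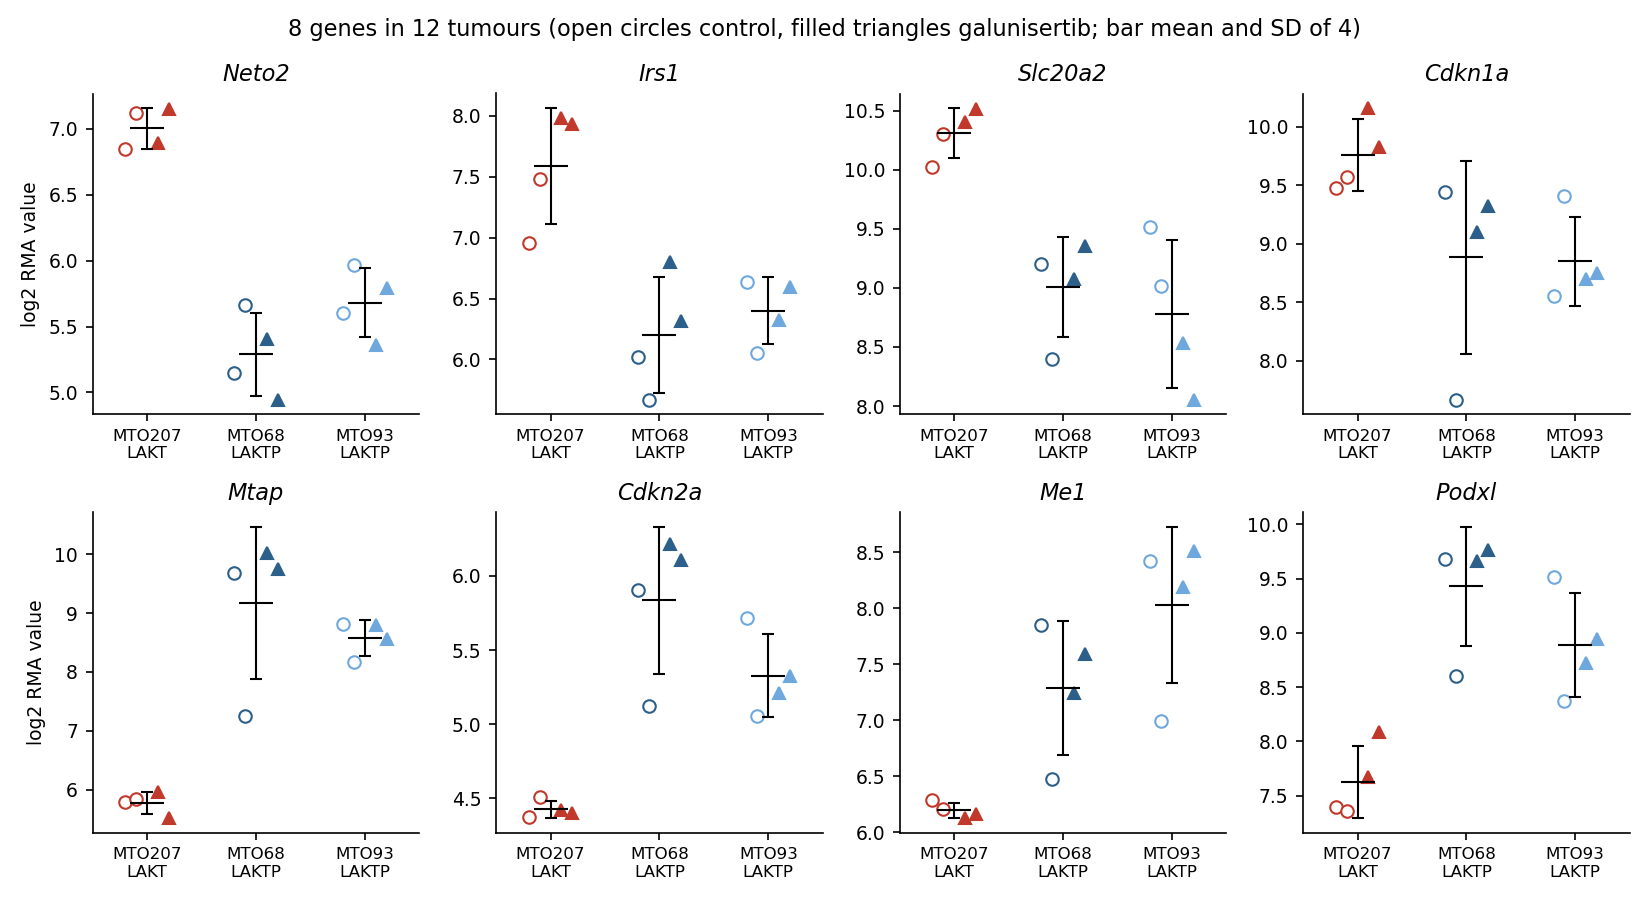
Log2 RMA values of 8 genes in each of the 12 tumours, by line, with open circles for control and filled triangles for galunisertib tumours and bars for the mean and SD of 4 tumours. The 4 LAKT values of each gene lie above (Neto2, Irs1, Slc20a2, Cdkn1a) or below (Mtap, Cdkn2a, Me1, Podxl) all 8 LAKTP values, and MTO68 control replicate 2 is the low MTO68 circle for Mtap, Me1 and Podxl.

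Against the mean of the LAKTP lines 249 of 15556 genes were called at a limma adjusted p of 0.05 (percent called 1.6), 74 higher (0.476%) and 175 lower (1.12%) in LAKT. After quantile normalization the split was 225 higher and 319 lower, and with array SD as a covariate 125 higher and 59 lower. The single lines gave unequal counts. LAKT differed from MTO68 in 6497 genes (41.8%) and from MTO93 in 3 (0.0193%), which were Neto2 higher (0.00643%) and Cldn2 and Onecut2 lower (0.0129%). MTO68 and MTO93, of the same genotype, differed from each other in 3857 genes (24.8%), 2514 higher in MTO68 (16.2%) and 1343 lower (8.63%). Of the 249 genes, 241 differed with the same sign from each line, and 247 were called against MTO68. Neto2 alone passed every condition, a share of 0.00643% of the genes tested. Against the mean, 4649 genes (29.9%) had an unadjusted p below 0.05. Of 12738 further probe sets not assigned to 1 gene, 25 were called (0.196%), 16 higher (0.126%) and 9 lower (0.0707%), and 2, both higher, met every condition (0.0157%).

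With the line as a random block, which sets LAKT against the spread between LAKTP lines, no gene was called (limma, 193 genes at an unadjusted p under 0.05), and a fit with no line term called 9. Calls therefore describe these 3 lines and not genotypes in general.

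MTO68 control replicate 2 changed these counts most. Leaving out any other single array gave 21 to 96 calls against the mean. Without MTO68 control replicate 2 the comparison with the mean called 7978 genes (51.3%), the comparison with MTO93 called 24 (0.154%) and 20 genes held against each line and in both arms (0.129%), 11 higher and 9 lower in LAKT. Each of the 20 was also called in both arms in that fit, where the MTO68 control group is 1 tumour that is assumed to vary like the other groups. The 11 higher genes were Neto2, Dynap, Irs1, Slc20a2, Rhox5, Bmp8b, Irx3, Zfp462, Cd55, Foxl2os and B230216N24Rik. The 9 lower genes were Mtap, Ctse, Tubb2a, Klhl9, Me1, Ak3, Cdkn2a, Cdc37l1 and Cdkn2b. They were named after their values were seen, as were the genes of the next paragraphs outside the lists.

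In 291 genes (1.87%) the 4 LAKT values did not overlap the 8 LAKTP values, 133 higher and 158 lower. Of the 249 called genes 105 were among them (0.675%), 50 higher and 55 lower. Where such a gene had several probe sets, all of them moved in 1 direction in 44 of 48 genes. Genes higher in LAKT included signalling and surface genes. Irs1, the adaptor of the insulin and IGF receptors, ranged from 6.95 to 7.98 in LAKT and had a lowest, median and highest value of 5.67, 6.32 and 6.80 in LAKTP. Its difference was 1.29 (SE 0.18; adjusted p = 0.0102), 1.39 against MTO68 and 1.19 against MTO93.

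Slc20a2, a sodium-phosphate cotransporter, was among the bright genes and was still higher in LAKT, at 10.0 to 10.5 against 8.05, 9.05 and 9.52 in LAKTP. The difference was 1.42 (SE 0.26; adjusted p = 0.0280). Cd55, which protects cells from complement, ranged from 6.93 to 7.66 in LAKT and from 6.07 to 6.50 in LAKTP, a difference of 1.15 (SE 0.15; adjusted p = 0.0065). Both genes differed by similar amounts from each line, with 1.30 and 1.53 for Slc20a2 and 1.22 and 1.08 for Cd55 against MTO68 and MTO93.

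Bmp8b, a ligand of the BMP family, differed by 1.31 (SE 0.15; adjusted p = 0.00396). Ngfr, the low-affinity neurotrophin receptor, differed by 1.10 (SE 0.15; adjusted p = 0.00654), and Cldn1, a tight junction claudin, by 1.29 (SE 0.28; adjusted p = 0.0458). Rhox5, a homeobox gene on the X chromosome, differed by 1.36 (SE 0.21; adjusted p = 0.0134). In each of these genes all LAKT tumours exceeded all LAKTP tumours.

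The largest difference among the separated higher genes was in Prkg2, a cGMP-dependent protein kinase, at 1.95 (SE 0.24; adjusted p = 0.00488), but it was uneven between the lines, with 2.81 against MTO68 and 1.10 against MTO93. Prss22, a serine protease, and Gprc5a, a retinoic acid-induced receptor, had the same unevenness, with 2.81 and 2.51 against MTO68 and 0.83 and 1.06 against MTO93. Prkg2 was also high outside LAKT, at 9.28 to 9.56 in MTO140 and 9.10 to 10.8 in MTO54, above the LAKT range of 7.73 to 8.39. Bmp8b in MTO54, at 7.78 to 8.88, overlapped LAKT as well. Prkg2 and Bmp8b thus separate LAKT from MTO68 and MTO93, but not from all lines of the series.

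Among lower genes, Mtap had the largest difference. It encodes methylthioadenosine phosphorylase, which salvages adenine and methionine. Its LAKT values were 5.79 and 5.85 in control and 5.96 and 5.52 in galunisertib tumours. In MTO68 they were 9.68, 7.25, 10.0 and 9.75, and in MTO93 8.82, 8.16, 8.79 and 8.56. The lowest LAKTP tumour, MTO68 control replicate 2, still exceeded the highest LAKT tumour.

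The Mtap difference was -3.10 (SE 0.40; adjusted p = 0.00557), 8.59-fold lower in LAKT. It was -3.40 against MTO68 (adjusted p = 0.0017) and -2.81 against MTO93 (adjusted p = 0.118), where it did not pass with all arrays and passed without MTO68 control replicate 2 (adjusted p = 3.36e-05). All 4 Mtap probe sets had groups that do not overlap, with differences from -1.59 to -3.10. MTO140 and MTO54 had Mtap between 8.21 and 9.06.

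Mtap lies next to Cdkn2a on chromosome 4, and genes on both sides of it were low in LAKT too. Cdkn2a, whose products p16 and ARF restrain the cell cycle kinases and Mdm2, had LAKT values of 4.37, 4.51, 4.42 and 4.40, near the 25th percentile of all values. In MTO68 it was 5.90, 5.12, 6.22 and 6.11, and in MTO93 5.71, 5.06, 5.21 and 5.32. The groups did not overlap, and the difference was -1.16 (SE 0.18; adjusted p = 0.0141). Against the single lines it was -1.41 for MTO68 (adjusted p = 0.0022) and -0.90 for MTO93 (adjusted p = 0.501).

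Cdkn2b, which encodes the related inhibitor p15, ranged from 5.35 to 5.73 in LAKT, from 5.75 to 6.69 in MTO68 and from 6.25 to 6.41 in MTO93. Its difference was -0.83 (SE 0.16; adjusted p = 0.0352). Klhl9, an adaptor of a ubiquitin ligase, ranged from 5.06 to 5.23 in LAKT, from 5.93 to 8.07 in MTO68 and from 6.27 to 6.71 in MTO93, and its difference was -1.64 (SE 0.27; adjusted p = 0.0182). All 4 genes were also lower in each LAKT tumour than in any tumour of MTO140 or MTO54. Cdkn2b and Klhl9 did not pass against MTO93 with all arrays (adjusted p = 0.501 each) and did so without MTO68 control replicate 2.

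The other genes of this neighbourhood did not show this separation, but most of them were dim. In gene order from Rps6, 20 measured genes before Cdkn2a, to Lrrc19, 10 after it, Klhl9, Mtap, Cdkn2a and Cdkn2b were the 4 of 31 genes with lower LAKT values that do not overlap LAKTP. The interferon alpha genes between Klhl9 and Mtap overlapped between LAKT and LAKTP. Over all arrays 7 of the 31 genes had a mean above 6, with Klhl9, Mtap and Cdkn2b among these 7. Genes near 4.16, the 25th percentile of all values, had little room to fall. Their overlap does not show that they kept their level. Dmrta1, the next measured gene after Cdkn2b, differed by 0.04 (SE 0.12) and Mllt3, before Klhl9, by -0.14 (SE 0.12), and the sign of both turned with array SD as a covariate. Focad and Hacd4, also before Klhl9, were high in MTO68 only, at 5.98 to 8.45 and 5.96 to 8.66, beside 5.62 to 5.81 and 5.02 to 5.44 in LAKT and 5.79 to 6.15 and 5.41 to 5.99 in MTO93. Tusc1, further on, was higher in LAKT, at 5.22 to 5.68 against at most 4.90 in LAKTP. DNA was not measured, and whether these 4 genes are altered in MTO207 was not tested.

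**Figure D2:**
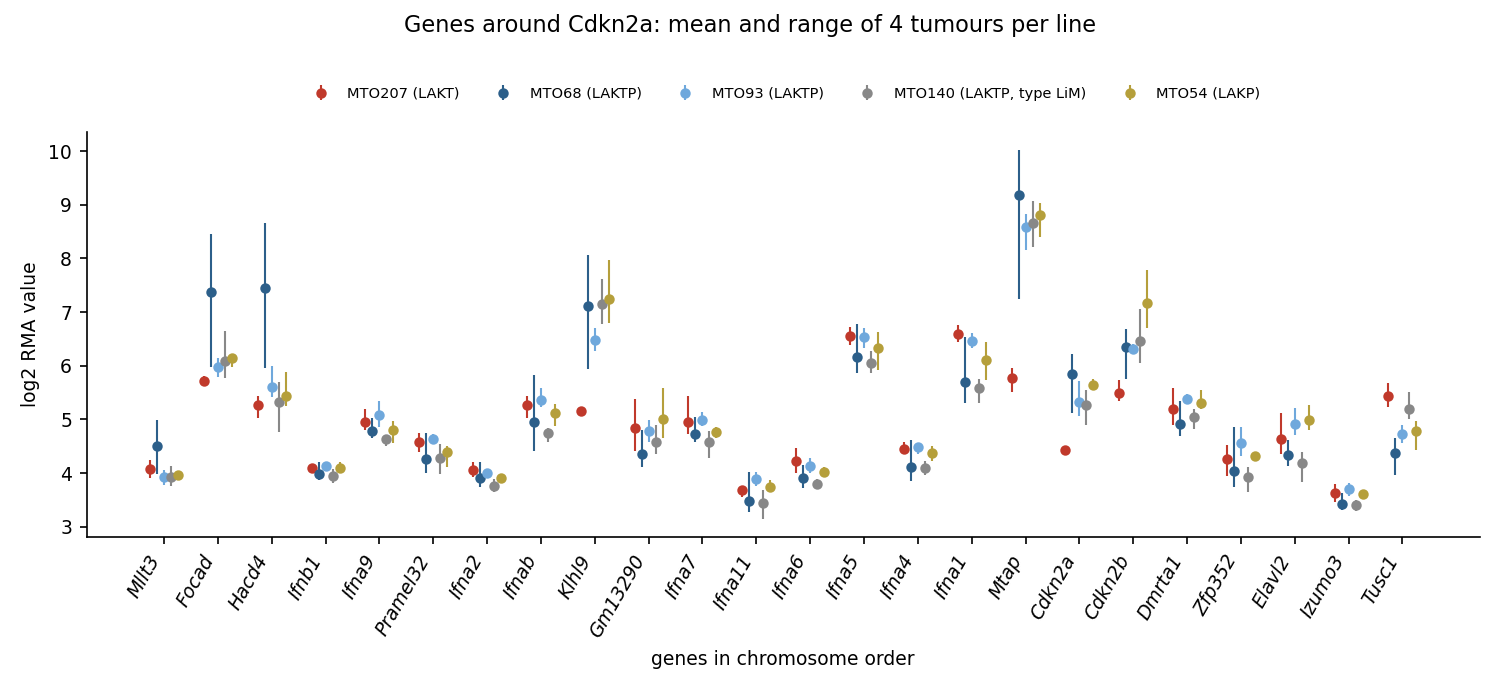
Log2 RMA values of genes around Cdkn2a in their order on chromosome 4, with points for the mean and lines for the range of 4 tumours in each of 5 organoid lines. Klhl9, Mtap, Cdkn2a and Cdkn2b are lowest in MTO207 without overlap, while Focad and Hacd4 are high in MTO68 only.

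Targets of p53 were compared because LAKT lacks the P of the LAKTP genotype. Of 46 listed targets 41 had a probe set and 40 were tested. In LAKT 3 were called higher, against a background of 0.476%, and none lower. The list as a whole had a median difference of -0.02, beside 0.00 over all genes, with -0.02 against MTO68 and 0.16 against MTO93. Both lines were exceeded on average in 18 of the 40 targets, beside 5597 of all 15556 genes, and undercut in 8, beside 5121. In 6 targets the LAKT values lay entirely above LAKTP, beside 0.855% of all genes.

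The 3 called targets were dim to moderate genes. Phlda3, an inhibitor of Akt signalling, was 5.60, 5.50, 5.88 and 5.63 in the LAKT tumours and 4.69, 5.05 and 5.23 at the lowest, median and highest in LAKTP. Its difference was 0.63 (SE 0.11; adjusted p = 0.0238), with 0.68 against MTO68 and 0.58 against MTO93. Psrc1, a regulator of spindle microtubules, was 6.11, 5.68, 6.17 and 6.08 in LAKT against 5.17, 5.53 and 5.56 in LAKTP and differed by 0.58 (SE 0.11; adjusted p = 0.0319). Epha2, an ephrin receptor, was 6.93, 6.71, 6.97 and 6.83 in LAKT against 5.15, 6.18 and 6.69, and differed by 0.90 (SE 0.18; adjusted p = 0.0377). LAKT and LAKTP did not overlap in any of the 3, but none was called against MTO93 alone. In the other Psrc1 probe sets they overlapped, with LAKT from 4.38 and 4.55 and LAKTP up to 4.48 and 4.75. In MTO140 Epha2 reached 7.16, so LAKT was not above every LAKTP line.

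The classical p53 target Cdkn1a, which encodes the p21 inhibitor of cell cycle kinases, was bright in every tumour. Its values were 9.47 and 9.57 in LAKT control and 10.2 and 9.83 in LAKT galunisertib tumours, against 9.44, 7.67, 9.10 and 9.32 in MTO68 and 8.55, 9.41, 8.70 and 8.75 in MTO93. The groups did not overlap, though 9.47 and 9.44 were nearly equal. In the other of its 2 probe sets they overlapped, with LAKT from 7.78 and LAKTP up to 8.04. The difference of 0.89 (SE 0.30; adjusted p = 0.105) did not pass. MTO140, an LAKTP line, had Cdkn1a at 9.86 to 10.7, a range that overlaps LAKT and extends above it.

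Ccng1, a cyclin G1 gene, was 8.60, 8.30, 9.19 and 8.85 in LAKT, 8.28, 7.06, 8.45 and 8.47 in MTO68 and 7.73, 7.58, 7.67 and 7.57 in MTO93. LAKT overlapped MTO68 and lay above all of MTO93. The difference of 0.88 (SE 0.22; adjusted p = 0.0646) did not pass, but without MTO68 control replicate 2 Ccng1 was called against MTO93 (1.10; adjusted p = 0.0195). So was Ephx1, a detoxifying epoxide hydrolase (1.06; adjusted p = 0.0332). With all arrays Ephx1 differed by 0.79 (SE 0.18; adjusted p = 0.0508).

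The other targets went both ways. Of all 40, 18 lay above both lines on average and 8 below both. Sesn2 differed by 0.45, Gtse1 by 0.31 and Ercc5 by 0.21, each higher against both lines without being called. LAKT and LAKTP did not overlap for Gtse1 and Ercc5, and Ercc5 was dim, with a LAKT mean of 4.39. Mdm2 itself differed by 0.26 (SE 0.21; adjusted p = 0.364), with -0.04 against MTO68 and 0.56 against MTO93. The p53-inducible stress gene Ddit4 was lower on average, at -1.15 (SE 0.29; adjusted p = 0.0638), and Btg2, an antiproliferative gene, differed by -0.49 (SE 0.18; adjusted p = 0.120). Among 15 tested regulators and relatives of p53, Cdkn2a was the 1 called gene, beside 1.12% of all genes called lower. Mdm4 differed by -0.27 (SE 0.17; adjusted p = 0.275), with the sign turned under quantile normalization. As RNA came from whole fragments, fewer cells of a type and less RNA per cell cannot be told apart in any of these levels.

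**Figure D3:**
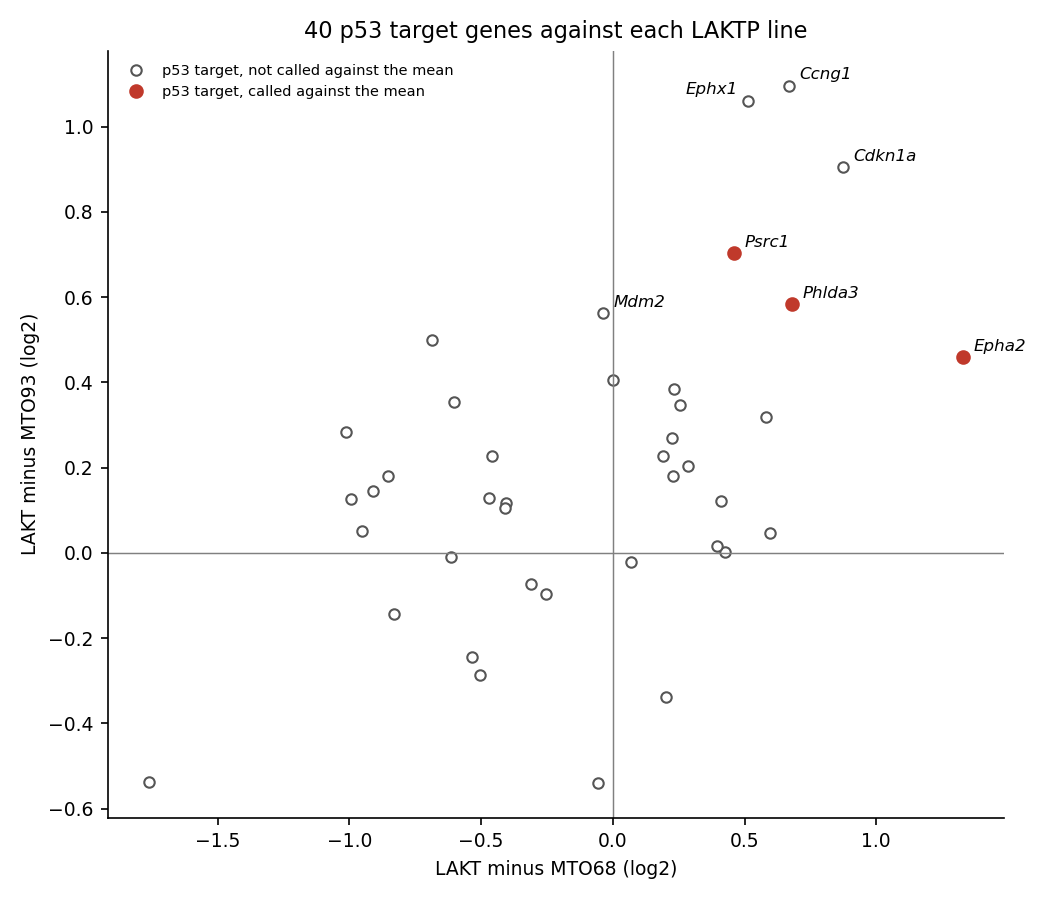
Log2 difference of LAKT from MTO68 (horizontal) and from MTO93 (vertical) for 40 p53 target genes, with filled points for the 3 called against the mean of both lines. Phlda3, Psrc1, Epha2, Cdkn1a, Ccng1 and Ephx1 have positive differences from both lines, among 18 such targets.

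Promoter sequence was examined for the targets whose levels are described above. The p53 consensus is built from a palindromic decamer, here the p53 motif of 10 bases, which reads alike on both strands. In RefSeq windows of the GRCm38.p6 build, from 250 bases before to 50 after each start, the motif occurred in 2745 of 32851 windows (8.36%). A window was matched for 30 of the 40 tested targets, and 9 of them held the motif in at least 1 window (10 of 42 windows). None of the 3 called targets did. Cdkn1a and Ccng1 are shown because they are the targets with the motif whose levels differed most. Capitals mark motif matches, and the Cdkn1a window belongs to an alternative upstream start.
Cdkn1a, chr17:29090876-29090967, plus strand: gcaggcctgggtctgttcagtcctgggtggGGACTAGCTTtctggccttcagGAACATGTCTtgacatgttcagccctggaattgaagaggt
Ccng1, chr11:40755432-40755501, minus strand: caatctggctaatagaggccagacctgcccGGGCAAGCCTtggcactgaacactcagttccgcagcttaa
A match describes these letters only, and binding was not measured.

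Genes of other signalling pathways were next described as lists. RAS-ERK output had a median difference of 0.22, with 8 of 17 members higher against both lines, 2 called higher and none lower, beside 5597 of 15556 genes above both lines, 0.476% called higher and 1.12% called lower. Hbegf, a ligand of the EGF receptor, was 8.48, 8.27, 8.53 and 8.44 in LAKT, 6.02 to 7.09 in MTO68 and 7.94 to 8.25 in MTO93. It differed by 1.00 (SE 0.19; adjusted p = 0.0319). Etv4, a transcription factor downstream of ERK, differed by 0.84 (SE 0.17; adjusted p = 0.0396). Both differences came more from MTO68 (1.66 and 1.45) than from MTO93 (0.34 and 0.22), while Spry4, a feedback inhibitor, differed by 1.20 and 0.57 without passing.

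Wnt targets had a median of -0.22, with -0.44 against MTO68 and 0.11 against MTO93. Of 18 members 2 were called, both lower, beside 1.12% of all genes. These were Wif1 at -2.16 (SE 0.40; adjusted p = 0.0280) and Nkd1 at -1.10 (SE 0.24; adjusted p = 0.0486), both inhibitors of Wnt signalling. Against MTO93 they differed by 0.59 and 0.08, so the calls rested on MTO68, where Wif1 was 7.80 to 10.8 beside 3.58 to 5.15 in LAKT. The stem cell marker Lgr5 differed by -1.32 (SE 0.37; adjusted p = 0.0799) and Smoc2, a matricellular protein of stem cells, by -2.24 (SE 0.56; adjusted p = 0.0638). The Smoc2 difference was -4.55 against MTO68 and 0.07 against MTO93, and that of Lgr5 -1.98 and -0.67. Apc, the Wnt pathway brake, differed by -0.42 (SE 0.18; adjusted p = 0.147).

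TGF-beta genes had a median of -0.12, with -0.18 against MTO68 and 0.02 against MTO93, and no called member of 26. Tgfbr2, the type II receptor, differed by -0.28 (SE 0.33; adjusted p = 0.545), Tgfbr1 by -0.30 (SE 0.29; adjusted p = 0.459) and Tgfb1 by -0.07 (SE 0.21; adjusted p = 0.813). Ltbp1, which stores the latent ligand, differed by -1.30 (SE 0.34; adjusted p = 0.0702) and the metalloprotease gene Adam12 by 0.52 (SE 0.17; adjusted p = 0.103). The signs of the Tgfbr2, Tgfbr1 and Tgfb1 differences turned with array SD as a covariate. The level of the receptor is no check of genotype, since its probe set may not fall in the altered exons and host cells carry it intact.

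Lipid synthesis genes stood lower in LAKT, mainly against MTO68. The cholesterol and fatty acid list had a median of -0.61, with -1.12 against MTO68 and -0.27 against MTO93. Of 13 members 11 were lower against both lines, beside 5121 of all 15556 genes and 2521 of the 4036 genes with a mean above 7. In the list 3 were called lower and none higher, beside 1.12% of all genes called lower. Scd1, the stearoyl-CoA desaturase, was 5.98, 6.23, 6.31 and 7.33 in LAKT, 8.91 to 11.3 in MTO68 and 6.96 to 7.83 in MTO93. LAKT overlapped MTO93, and the difference was -2.32 (SE 0.35; adjusted p = 0.0126).

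Dhcr7, the last enzyme of cholesterol synthesis, ranged from 6.66 to 7.66 in LAKT and from 7.93 to 9.66 in LAKTP, a difference of -1.29 (SE 0.20; adjusted p = 0.0132). Cyp51, a demethylase of the same pathway, differed by -0.64 (SE 0.14; adjusted p = 0.0440). Outside the list, the fatty acid desaturases Fads1 (-1.52, SE 0.18, adjusted p = 0.00396) and Fads2 (-1.33, SE 0.20, adjusted p = 0.0123) and the sterol reductase Tm7sf2 (-1.47, SE 0.31, adjusted p = 0.0440) were called, with groups that do not overlap. These 3 differences lay mostly against MTO68 (-2.58, -2.04 and -2.57) and less against MTO93 (-0.47, -0.62 and -0.37; adjusted p = 0.999 each). No tested gene of the list was called against MTO93 either. Me1, which makes NADPH for fatty acid synthesis, had a larger gap to MTO93 (-1.83) than to MTO68 (-1.09). Its LAKT values lay within 6.12 to 6.28, and LAKTP ranged from 6.48 to 8.51.

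Other lower genes were Ctse, a cathepsin of gastric-type epithelium, at 4.37 to 5.00 against 5.46 to 8.81 (-2.20, SE 0.42, adjusted p = 0.0324), and Podxl, a sialomucin of the cell surface, at 7.36 to 8.08 against 8.37 to 9.76 (-1.53, SE 0.25, adjusted p = 0.0170). Tubb2a, a beta tubulin, differed by -1.88 (SE 0.25; adjusted p = 0.00708). Apobec3, a cytidine deaminase that restricts retroviruses, differed by -1.61 (SE 0.18; adjusted p = 0.00396), with most of the gap to MTO68 (-2.49) and less to MTO93 (-0.74). Ak3, a mitochondrial adenylate kinase, and its neighbour Cdc37l1 on chromosome 19 differed by -1.39 (adjusted p = 0.0375) and -0.96 (adjusted p = 0.0227). In the other probe sets of both genes LAKT and LAKTP overlapped, with differences of -0.66 and -1.32 for Ak3 and -0.42 for Cdc37l1.

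Differentiation and epithelial lists had medians on both sides of 0. Colonocyte genes had a median of -0.37, but with opposite signs by line, 0.17 against MTO68 and -0.88 against MTO93, and 1 of 24 was called, beside 1.12% of all genes called lower. This was Vil1, the microvillus protein villin, at -1.07 (SE 0.23; adjusted p = 0.0440). For simple epithelium the median was -0.30, and 1 of 22 genes was called, beside 1.12% of all genes called lower. Below both lines lay 15 of the 22, beside 5121 of all 15556 genes and 2521 of the 4036 genes with a mean above 7. The called gene, Cldn2, a pore-forming claudin, was 5.96 to 7.18 in LAKT, 6.26 to 7.73 in MTO68 and 9.06 to 10.3 in MTO93, which makes it a difference from MTO93 (-2.88) and not from MTO68 (-0.32).

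Epcam differed by -0.46 (SE 0.17; adjusted p = 0.126) and was lowest in LAKT control replicate 1, at 9.65. Cdh1, E-cadherin, did not overlap between groups and differed by -0.76 (adjusted p = 0.0583). Bright genes as a whole had negative medians, as given above. Goblet, tuft and enteroendocrine genes had a median of 0.08, with 0.19 against MTO68 and -0.03 against MTO93. Of 23 members 1 was called, beside 1.12% of all genes called lower. This was Prox1, an intestinal transcription factor, at -2.48 (SE 0.37, adjusted p = 0.0126). It was 9.19 to 9.93 in MTO68 and 4.27 to 6.12 in LAKT and MTO93. Fetal-like and regenerative genes had a median of 0.23, and 1 of 17 was called, beside 0.476% of all genes called higher. This was Anxa8, an annexin, at 1.18 (SE 0.25, adjusted p = 0.0442), with 2.06 against MTO68 and 0.29 against MTO93. Bex1, a small brain-expressed gene, was 9.67 to 10.5 in LAKT and overlapped both LAKTP lines.

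Proliferation genes had a median of -0.18, with -0.36 against MTO68 and 0.08 against MTO93, and no call of 25. Foxm1, a driver of mitotic genes, was 7.55 to 7.62 in LAKT and 6.99 to 7.40 in LAKTP, a difference of 0.44 that did not pass (adjusted p = 0.0578), and the thymidylate synthase gene Tyms differed by -0.38 (adjusted p = 0.124), with the sign turned when probe sets were averaged. In the senescence-associated secretion list 2 of 12 genes were called lower, beside 1.12% of all genes. These were Cdkn2b, the p15 inhibitor gene near Cdkn2a described above, and Igfbp4, an IGF-binding protein. Igfbp4 differed by -0.79 (SE 0.15; adjusted p = 0.0319). In the hypoxia and glycolysis list no gene of 14 passed, and Hk2 differed by 0.50 and Car9 by -1.30.

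Immune lists differed in how they compared with each line. Type I interferon genes had a median of -0.57, made up of -1.21 against MTO68 and 0.02 against MTO93, with no call of 16. Ifit2 differed by -1.50 (adjusted p = 0.0508) and Ifih1 by -0.84 (adjusted p = 0.0922). The MHC class I list, whose products load and show peptides, had its median at -0.43 (-0.74 and -0.14), with Psmb8 at -0.75 and H2-T23 at -0.52. Interferon-gamma genes had a median of -0.45 (-0.41 and -0.35), with Irgm2 at -1.02 and Gbp3 at -0.85, and dendritic cell and MHC class II genes had one of -0.43 (-0.47 and -0.33), with H2-DMb1 at -0.62 and H2-DMa at -0.58. No member of these lists was called.

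Among T and cytotoxic cell genes 1 of 17 was called, beside 1.12% of all genes called lower. This was Gzma, a granzyme, at -2.38 (SE 0.40; adjusted p = 0.0200). It was 7.66 to 10.9 in MTO68 and 4.98 to 5.93 in LAKT and MTO93. The pan-leukocyte gene Ptprc differed by -1.26 (SE 0.41; adjusted p = 0.102). Macrophage, neutrophil, mast cell and B cell lists had medians between -0.14 and 0.02 and no call, and the B cell list turned sign between MTO68 (0.32) and MTO93 (-0.31). Among them Lcn2, an acute phase iron-binding protein, differed by -2.14 and C1qa by -0.77, Ccr2 by 0.34, Mmp8 by 0.16, Ms4a2 by 0.35, Tpsb2 by 0.37, Cd22 by 0.14 and Pou2af1 by -0.39, with adjusted p between 0.0931 and 0.367.

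Stromal lists lay slightly above 0 against the mean of both lines, though collagen and matrix genes had 0.17 against MTO68 and -0.07 against MTO93. Fibroblast genes had a median of 0.16, smooth muscle and pericyte genes 0.18, endothelial genes 0.19 and collagen and matrix genes 0.07, with no gene called in the 4 lists. Notch3, a receptor of mural cells, differed by 0.67 (adjusted p = 0.0582) and did not overlap between groups, and Synpo2 differed by 0.40. Pdgfrb, a fibroblast and pericyte receptor, differed by 0.34 (SE 0.18; adjusted p = 0.215), Fbln1 by -0.49, Mmp3 by 0.75, Col11a1 by 0.26 and Col1a2 by 0.14. The vessel genes Robo4 and Cldn5 differed by 0.36 and 0.32.

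Markers of neighbouring tissues gave medians of 0.33 for fat and mesothelium, 0.25 for enteric neurons and glia, 0.15 for exocrine pancreas, 0.11 for squamous keratinocytes and 0.22 for blood, with no call. Within them Cela1 differed by -0.94, Prss2 by 0.34, Lrrn4 by 0.41, Upk3b by 0.43, Krt13 by 0.52, Krt1 by 0.23, Stmn2 by 0.57, S100b by 0.21, Slc4a1 by 0.22 and Alas2 by -0.21. Handling stress genes had a median of 0.10, and 1 of 10 was called, beside 1.12% of all genes called lower. This was Jun, an immediate early transcription factor, at -1.24 (SE 0.28, adjusted p = 0.0486), with -2.01 against MTO68 and -0.47 against MTO93. Of the sex-linked genes, Xist ranged from 4.34 to 5.12 and Eif2s3y from 5.73 to 8.35 in the 12 tumours without separating LAKT, with differences of 0.30 and -0.20, and Uty differed by -0.11.

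**Figure D4:**
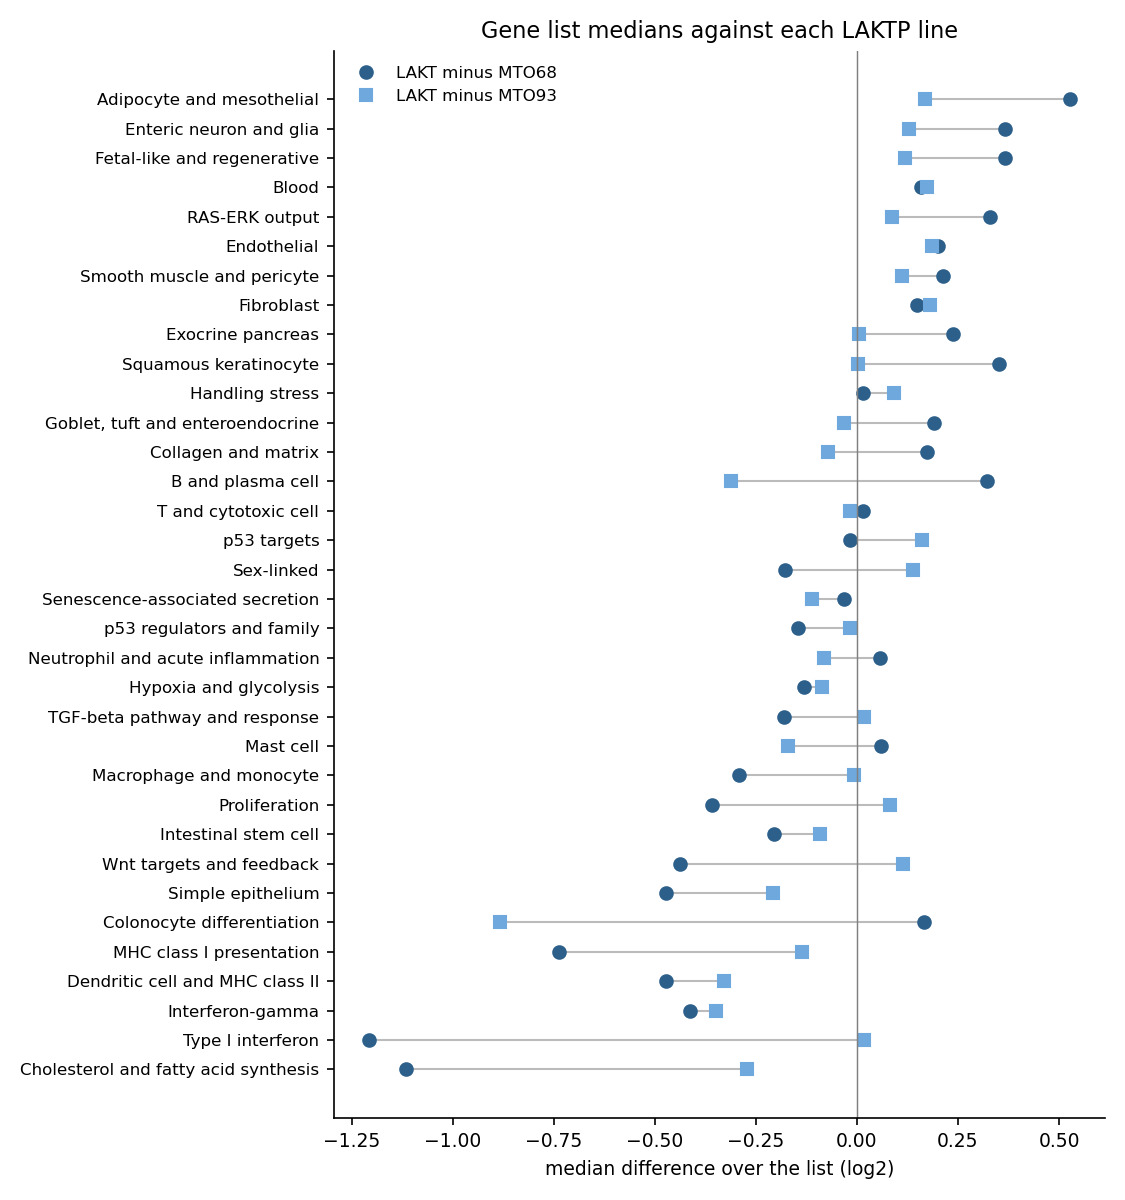
Median log2 difference of LAKT from MTO68 (circles) and from MTO93 (squares) over each of 34 gene lists, ordered by the difference from the mean of both lines. Cholesterol and fatty acid synthesis and type I interferon lists lie farthest left against MTO68, at -1.12 and -1.21, and colonocyte genes are among the lists that differ in sign between the lines.

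Chromosomes were compared to see where separated genes lay. Chromosome 6 had 24 genes with LAKT values above LAKTP and 1 below among 841 tested, or 2.85% and 0.119%, beside 0.855% and 1.02% over all genes. Its median difference was 0.09 against MTO68 and 0.10 against MTO93, and its 210 bright genes had medians of -0.22 and 0.08 where all bright genes had -0.47 and -0.11. It was the 1 chromosome whose bright genes had a positive median against MTO93. Gprc5a, Chl1, Hoxa3, Sema4f, Tmem40 and Frmd4b on chromosome 6 were called higher and separated, and Podxl lower.

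Shares were opposite on chromosome 19, with 18 of 531 genes (3.39%) below and 4 above, and on chromosome 15, with 19 of 654 (2.91%) below and 6 above. Chromosome 19 held Fads1, Fads2, Tm7sf2, Ak3, Cdc37l1, Add3, Pdcd4, Insl6 and Dtx4, all lower. Chromosome 2 had 21 of 1224 genes (1.72%) below and 3 above. Against MTO68 the bright genes of chromosomes 19, 15 and 2 had medians of -0.50, -0.67 and -0.57, beside -0.47 over all bright genes. Against MTO93 these medians were -0.20, -0.10 and -0.08, beside -0.11. Bright genes of chromosomes 15 and 2 were thus no lower against MTO93 than bright genes as a whole. Copy number was not measured, and genes of a chromosome are not replicates, so the shares are given without a test.

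**Figure D5:**
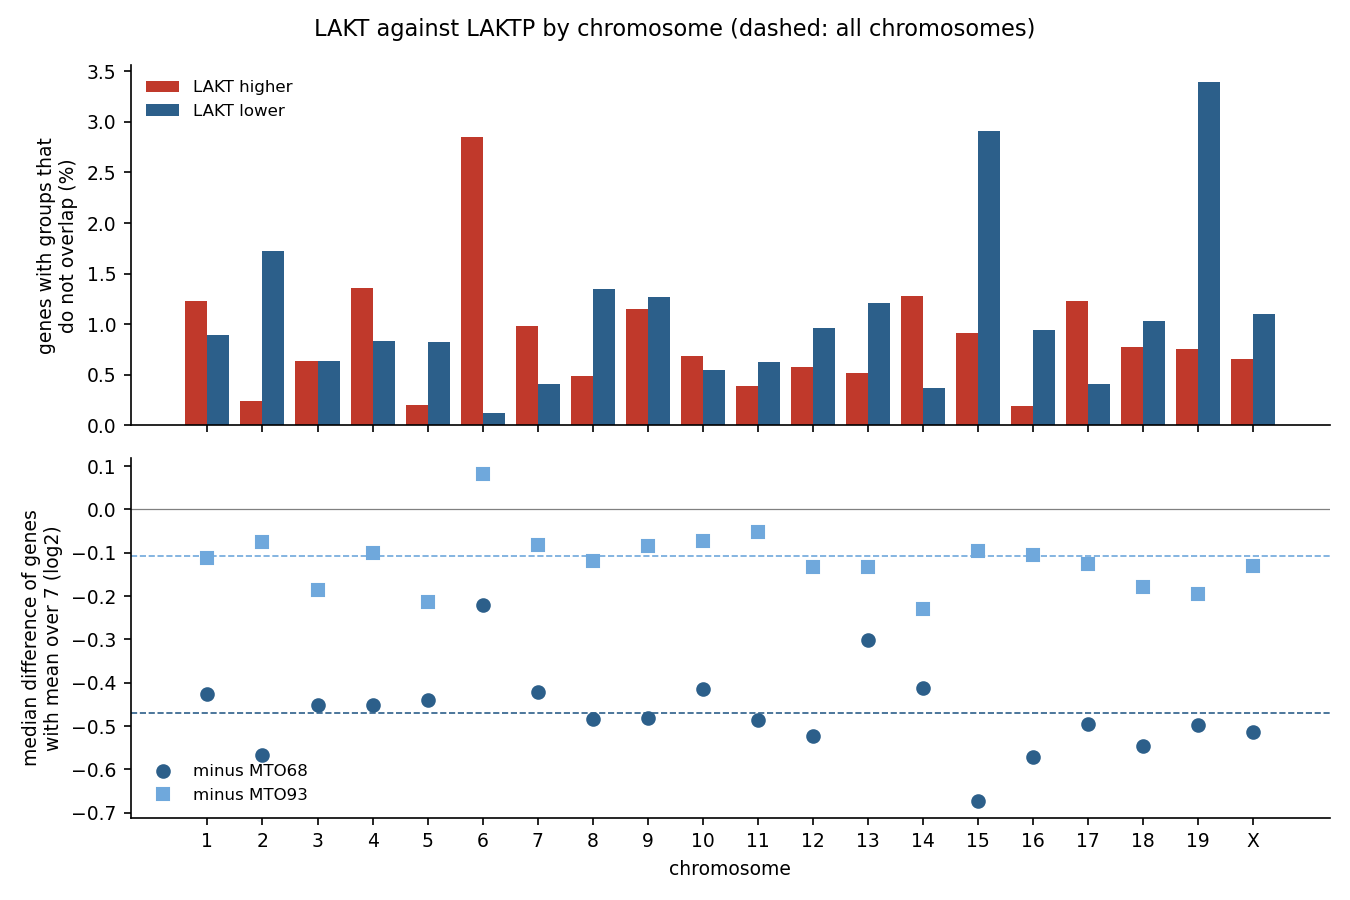
Share of tested genes whose 4 LAKT values lie entirely above or below the 8 LAKTP values by chromosome (top, percent), and median log2 difference of genes with a mean over 7 against each LAKTP line (bottom), with dashed lines for all chromosomes. Chromosome 6 has the highest share above (2.85%) and chromosome 19 the highest share below (3.39%).

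The last comparison asked whether the difference between LAKT and LAKTP depended on galunisertib. Within control tumours no gene was called (percent called 0.0), and within galunisertib tumours 99 were (0.636%), 31 higher and 68 lower. No gene was called for the difference between the arms themselves (limma interaction, smallest adjusted p = 1.00; 458 genes, 2.94%, at an unadjusted p under 0.05, 127 of them, 0.816%, positive), so the unequal counts do not show that the arms differ. Without MTO68 control replicate 2, which leaves 1 MTO68 control tumour, the arms gave 7221 (46.4%) and 3014 (19.4%) calls.

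The genes with the smallest interaction p-values are given as values. Anxa8 differed between galunisertib and control by 0.39 in LAKT, -0.82 in MTO68 and -1.27 in MTO93. Tbccd1 had treatment differences of -0.30 in LAKT, 1.56 in MTO68 and 0.12 in MTO93, and Atp4a, a subunit of the gastric proton pump, -0.49, 2.58 and -0.06. Psca, a surface antigen, had 0.70 and -0.43, with -0.50 in MTO93, and Map2k6, a p38 kinase activator, -0.10 and 0.95, with 0.11 in MTO93. MTO68 control replicate 2 is 1 of the 2 control tumours behind each MTO68 value.

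The lead genes had 1 direction in both arms, but this was fixed in advance and is no separate result. Neto2 could not have held without it. In the other genes below the LAKT and LAKTP values do not overlap, which sets the sign within each arm. Neto2 was 1.39 higher in LAKT among control tumours and 1.65 among galunisertib tumours, Mtap -2.66 and -3.54, Cdkn2a -1.01 and -1.31, Cdkn1a 0.75 and 1.03, and Phlda3 0.44 and 0.83. For Phlda3 the difference between the arms was 0.39 (SE 0.18; limma interaction, unadjusted p = 0.0547, adjusted p = 1.00). The difference in the galunisertib arm passed for Neto2 (adjusted p = 0.0176), Mtap (adjusted p = 0.0254), Cdkn2a (adjusted p = 0.0376) and Phlda3 (adjusted p = 0.0290).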

How the data were processed

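Each tumour's RNA was hybridised to 1 array. The deposited values are log2 levels per probe set. Per the submitters' processing notes, RMA and affy were used, with no version given in the sources used here. RMA normalizes arrays by quantiles, but the deposited arrays did not share a common distribution. The SD was 1.46 in MTO207 control replicate 1 and 1.82 in MTO68 galunisertib replicate 1, with medians of 5.12 and 4.93. Differences in level and spread between whole arrays thus remained in the values. The table held 45141 probe sets, of which the platform annotation assigns 28898 to 1 gene symbol, 551 to several and 15588 to none named here, beside 104 controls. Symbols of 28689 were updated through their Entrez ID. The brightest probe set on average stood for each of 17097 genes, and 15556 genes above 4.16, the 25th percentile, on at least 2 of 20 arrays were tested.

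A mean per line plus treatment was fitted with limma 3.58.1 (R 4.3.3; lmFit, eBayes with trend; 8 residual degrees of freedom), with two-sided p-values adjusted by Benjamini-Hochberg across the genes tested. A gene held if called against the mean and each line, with the same sign in both arms. Arms and interaction came from a fit with a mean for each line and treatment. Every adjusted p is limma's. The design text gives 2 biological replicates per group. Array number limits the precision.

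Members and the 34 lists (583 genes, 503 tested) were chosen with earlier results of these data known. Named genes were up to 15 largest rises and falls that held, for each list up to 4 held members of smallest p, else called members, else the 2 of smallest p, called p53 targets, 5 genes of smallest interaction p and a fixed set; others were chosen after their values were seen. B2m, Tagln, Muc2, Lck, Thbs1 and Pmepa1 were not analysed here. The model was tested on simulated data. Alternatives are given in the closing section. Plots used matplotlib 3.10.9.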

Additional observations from a re-analysis of the deposited data

Results flagged for a closer look

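Dixon's criterion was applied to 360 groups of 4 tumours (the 3 lines for each named gene, the array SD and the hybridization controls). In 27 of them 1 tumour lay far from the other 3 of its line, where chance gives about 1 in 20. That rate is no yardstick here, because the genes share arrays. Some genes were also named because they held when MTO68 control replicate 2 was left out. MTO68 control replicate 2 accounted for 13. It was low for Ifih1 (6.56), Jun (7.87), Mdm2 (7.23), Ccng1 (7.06), Tgfbr2 (6.72), Ptprc (5.93), Mtap (7.25), Podxl (8.60) and Ak3 (7.21). It was high for Xist (5.12), Prss2 (4.68), Upk3b (7.47) and B230216N24Rik (4.20).

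MTO68 galunisertib replicate 1 was low for Lgr5 (6.49), Hbegf (6.02) and Cldn5 (4.34) and high for Igfbp4 (11.6). LAKT galunisertib replicate 2 was high for Wif1, at 5.15 against 3.58 to 3.63, and for Prox1, at 6.12 against 4.38 to 4.50. LAKT control replicate 1 was low for Fads1 (6.48), Strbp (5.47) and Cdc37l1 (6.71), and LAKT control replicate 2 for H2-T23 (7.87 against 9.03 to 9.22). MTO93 control replicate 1 was high for Gbp3 (5.53) and Tgfbr2 (8.81) and low in its hybridization controls (9.71), and MTO93 control replicate 2 was high for Robo4 (5.19).

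Outside the gene comparisons, 25 of 12738 probe sets not assigned to 1 gene were called between LAKT and the mean of the LAKTP lines (limma), 16 higher and 9 lower.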

How the results depend on the processing

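Alternatives for the overlap counts, for the single-line, single-arm and line-to-line counts and for unnamed probe sets were chosen after seeing the data. The 249 genes called became 544 after quantile normalization, 7968 with array weights, 605 with all 20 arrays, 722 with 6 line-by-treatment means, 112 with no treatment term, 31, 85 and 2198 with hybridization controls, epithelial or fibroblast score as covariate, 105 at an absolute log2 difference of at least 1, 9 with no line term and 0 with line as random block. The 1 gene that held became 4 with the probe set of largest variance, 3 with the mean of probe sets, 13 after quantile normalization, 0 without trend, 78 with array weights, 0 with 6 means, and 16 and 3 with array SD or hybridization controls as covariate. It stayed 1 but became Mtap with all 20 arrays, Slc20a2 with the epithelial score and Dynap without MTO207 control replicate 2, and Neto2 held in 15 of 29 settings. The 105 called genes without overlap became 205, 287, 168, 173 and 69 with quantile normalization, array weights, all 20 arrays, 6 means and no treatment term, 51, 19, 40 and 233 with array SD, hybridization controls, epithelial or fibroblast score as covariate, and 42 at a log2 difference of at least 1. On 8 arrays alone, LAKT differed from MTO93 in 8 genes. Leaving out each array gave 21 to 7978 genes called, 0 to 20 held, 16 to 620 called without overlap, 2772 to 10758 against MTO68, 0 to 24 against MTO93, 409 to 9828 between the LAKTP lines, 0 to 7221 in control and 0 to 3014 in galunisertib tumours, 0 to 7 for the interaction and 6 to 6767 unnamed probe sets. Over 118 named genes and 30 alternatives, 2771 values kept direction and side of the threshold, 543 lost and 165 gained the call, and 40 in 14 genes changed sign. With array SD as covariate these were Uty 0.11, Upk3b -0.039, Mdm4 0.022, Tgfbr1 0.35, Tgfbr2 0.49, Tgfb1 0.34, Eif2s3y 0.40, Dmrta1 -0.16 and Mllt3 0.049. With hybridization controls they were Cd22 -0.0050, Uty 0.11, Upk3b -0.035, Tbccd1 0.021, Atp4a 0.069, Mdm4 0.0042, Tgfbr1 0.24, Tgfbr2 0.47, Tgfb1 0.24, Eif2s3y 0.34, Dmrta1 -0.16 and Mllt3 0.12. With the epithelial score they were Mdm4 0.0051, Tgfbr1 0.22, Tgfbr2 0.17, Tgfb1 0.29, Eif2s3y 0.15 and Dmrta1 -0.18. Quantile normalization gave Mdm4 0.023, Tgfbr2 0.079 and Dmrta1 -0.049, array weights Eif2s3y 0.20, the probe set of largest variance Tyms 0.43 and Cd22 -0.00076, and the mean of probe sets Tyms 0.081 and Ccr2 -0.026. Leaving out each array gave Tgfb1 -0.20 to 0.036, Eif2s3y -0.52 to 0.0059 and Dmrta1 -0.065 to 0.10. The cause was not tested. No paired analysis was possible because the labels give no replicate numbers shared between lines. Array number and 1 LAKT line limit all results, and dim genes near 4.16 have compressed differences.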
